A study of Mus musculus with 7 samples.

Results

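Muc2, Muc13, Tff3, Fcgbp, Agr2, Zg16 and Spdef are genes of intestinal mucus and of the goblet cells that make it. They were taken from the deposited count table by an exact match of the gene name, which found 7 rows among 38293, 1 for each gene. Goblet cells are secretory cells scattered through the epithelium of the villi and crypts. They package the gel-forming mucin MUC2 together with smaller proteins and release them as mucus, which lies between the epithelium and the bacteria of the lumen. MUC2 chains are joined end to end by disulfide bonds between cysteines, and some of the smaller secreted proteins also hold such bonds, so a diet poor in cystine, the oxidized form of cysteine, raises the question whether their RNA levels differ.

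The libraries came from male C57BL/6NRJ mice, housed individually. The mice were 8 weeks old when this housing began, not when the RNA was taken. They were fed a purified AIN93-G diet that was low in calcium, with 40% of its energy from fat. All mice had 1 week of acclimatization on the control diet. For the next 2 weeks the normal cys group (n = 4 libraries) stayed on that diet, while the low cys group (n = 3 libraries) received it with alanine in place of the added cystine. RNA was prepared from scrapings of the ileum, a preparation of mucosa without the underlying muscle, from a subset of the 8 mice per diet. The normal cys libraries held from 19712355 to 22412703 counts (median 21275624) and the low cys libraries from 14888760 to 21942518 (median 15708368). The ileal bile acid binding protein gene Fabp6 was abundant, at 5392 ± 1453 CPM (SD, n = 4) on the normal cys diet and 4029.7 ± 1323 CPM (SD, n = 3) on the low cys diet. Of 7 genes listed as colon markers, Car1, Aqp8 and Hoxd13 had at most 5, 1 and 0 counts in any library, while the other 4 (Sprr2a2, Car4, Slc26a3 and B3galt5) were expressed and tested, with Sprr2a2 at 52536 to 106254 counts. Among the stomach surface markers, Gkn1 and Gkn2 had 0 counts. CPM values are counts scaled to the effective library size, the total count times a TMM normalization factor, so that they can be compared between libraries.

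A pair of normal cys libraries held the highest levels of these genes. Replicate 4 had the highest level of Muc2, Tff3, Fcgbp, Zg16 and Spdef among the 7 libraries, and replicate 1 had the highest level of Muc13 and Agr2. Zg16 in replicate 4 was 1.77 times the mean of the other normal cys libraries, Fcgbp 1.67 times, Tff3 1.59 times and Muc2 1.54 times. Muc13 in replicate 1 was 2.50 times the mean of the other normal cys libraries. Results are therefore given with and without these libraries. For the log2 fold changes, leaving out each single library was planned, while leaving out both was chosen after the values were seen. Leaving out both because they are high lowers the normal cys mean of the same genes, so the values without both are descriptions and carry no test.

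Muc2 encodes the gel-forming mucin that builds the mucus of the intestine. Its levels in normal cys replicates 1 to 4 were 2016, 1756, 2012.5 and 2976 CPM, and in low cys replicates 1 to 3 they were 1918.5, 1614 and 1767 CPM. Normal cys replicate 4 was highest and low cys replicate 2 lowest, and the groups overlapped because normal cys replicate 2 lay below low cys replicates 1 and 3. The means were 2190.1 ± 538 CPM (SD, n = 4) on the normal and 1766 ± 152 CPM (SD, n = 3) on the low cys diet. The log2 fold change, low cys minus normal cys, was -0.31 (SE 0.208, 95% interval -0.78 to 0.16), with an adjusted p of 0.794 in edgeR's quasi-likelihood test. A two-sided exact permutation test of the CPM values gave p = 0.229, where the smallest p that 35 assignments of the libraries can give is 0.0286. Without normal cys replicate 4 the log2 fold change of Muc2 was -0.13 (SE 0.164).

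Tff3 encodes trefoil factor 3, a small disulfide-bonded peptide secreted with the mucin. Its levels in normal cys replicates 1 to 4 were 1078, 1097, 1185 and 1781 CPM, and in low cys replicates 1 to 3 they were 1109, 993 and 1069 CPM. Apart from normal cys replicate 4, the libraries of both diets lay in a narrow range and overlapped. The log2 fold change of Tff3 was -0.28 (SE 0.204, 95% interval -0.74 to 0.18), with 0.798 as the adjusted p of edgeR. Without normal cys replicate 4 it was -0.08 (SE 0.146). Fcgbp encodes a large mucus protein built of repeated von Willebrand factor D domains. In normal cys replicates 1 to 4 the levels of Fcgbp were 5363, 3606, 3581 and 6985 CPM, and in low cys replicates 1 to 3 they were 4091, 3828 and 3794 CPM. The low cys libraries lay close together between the lower and the upper pair of normal cys libraries. The log2 fold change of Fcgbp was -0.32 (SE 0.258, 95% interval -0.91 to 0.26), with an adjusted p of 0.804 in edgeR. It was -0.10 without normal cys replicate 4, and 0.12 without normal cys replicates 1 and 4, so its direction turned when these libraries were left out.

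Zg16 encodes a lectin-like mucus protein that binds the cell wall of Gram-positive bacteria. Normal cys replicates 1 to 4 had Zg16 levels of 3002, 2862, 3564 and 5555 CPM, and in low cys replicates 1 to 3 they were 2655, 2876 and 2800.5 CPM. The groups overlapped by 1 library on each side, since normal cys replicate 2 was just below low cys replicate 2. Zg16 had the log2 fold change of largest size among the 7 genes when all libraries were kept. The means of Zg16 were 3746 ± 1244 CPM (SD, n = 4) on the normal and 2777 ± 112 CPM (SD, n = 3) on the low cys diet. Its log2 fold change was -0.43 (SE 0.248, 95% interval -0.99 to 0.13), with p = 0.2 in the two-sided exact permutation test and 0.794 as the adjusted p of edgeR. Without normal cys replicate 4 the log2 fold change of Zg16 was -0.18 (SE 0.174), and without normal cys replicates 1 and 4 it was -0.21 (SE 0.202), smaller in size than those of Muc13 and Agr2.

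Muc13 encodes a transmembrane mucin of the apical surface that enterocytes make as well as goblet cells. Its levels in normal cys replicates 1 to 4 were 9501, 3322.5, 3982 and 4107 CPM, and in low cys replicates 1 to 3 they were 5918, 4444 and 4883 CPM. Normal cys replicate 1 was above every other library, and the remaining normal cys libraries were all below the low cys libraries. The means were 5228 ± 2869 CPM (SD, n = 4) and 5082 ± 757 CPM (SD, n = 3), and the log2 fold change was -0.04 (SE 0.357, 95% interval -0.85 to 0.77), with an adjusted p of 0.982 in edgeR. Without normal cys replicate 1 it was 0.42 (SE 0.201), and without normal cys replicates 1 and 4 it was 0.48 (SE 0.232). The direction for Muc13 also turned without low cys replicate 2, to 0.07 (SE 0.428), with limma-voom, to 0.07 (SE 0.336), and to 0.11 when libraries were scaled by total count alone, a scaling that moved the median of all genes to 0.15.

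Agr2 encodes a protein disulfide isomerase of the endoplasmic reticulum that is needed for MUC2 production. Its levels in normal cys replicates 1 to 4 were 378, 271, 231 and 329.7 CPM, and in low cys replicates 1 to 3 they were 368, 309 and 314 CPM. The low cys libraries lay within the range of the normal cys libraries. The log2 fold change of Agr2 was 0.13 (SE 0.182, 95% interval -0.28 to 0.54), with an adjusted p of 0.861 in edgeR. Its size moved with single libraries, to 0.01 without normal cys replicate 3, 0.05 without low cys replicate 1 and 0.25 without normal cys replicate 1. Without normal cys replicates 1 and 4 the log2 fold change was 0.39, but these hold the highest Agr2 levels of the normal cys libraries, so that leaving them out raises the estimate by itself. Spdef encodes the ETS transcription factor that drives goblet cell maturation. In normal cys replicates 1 to 4 the levels of Spdef were 17.5, 18.35, 19.0 and 22.1 CPM, and in low cys replicates 1 to 3 they were 17.9, 18.7 and 21.5 CPM. Both groups covered almost the same range, with 19.2 ± 2.03 CPM (SD, n = 4) and 19.4 ± 1.87 CPM (SD, n = 3). The log2 fold change of Spdef was 0.01 (SE 0.140, 95% interval -0.31 to 0.32), with an adjusted p of 0.993 in edgeR. Spdef rests on 300 to 463 counts per library, while each of the other 6 genes had at least 4400.0 counts in every library.

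**Figure D1:**
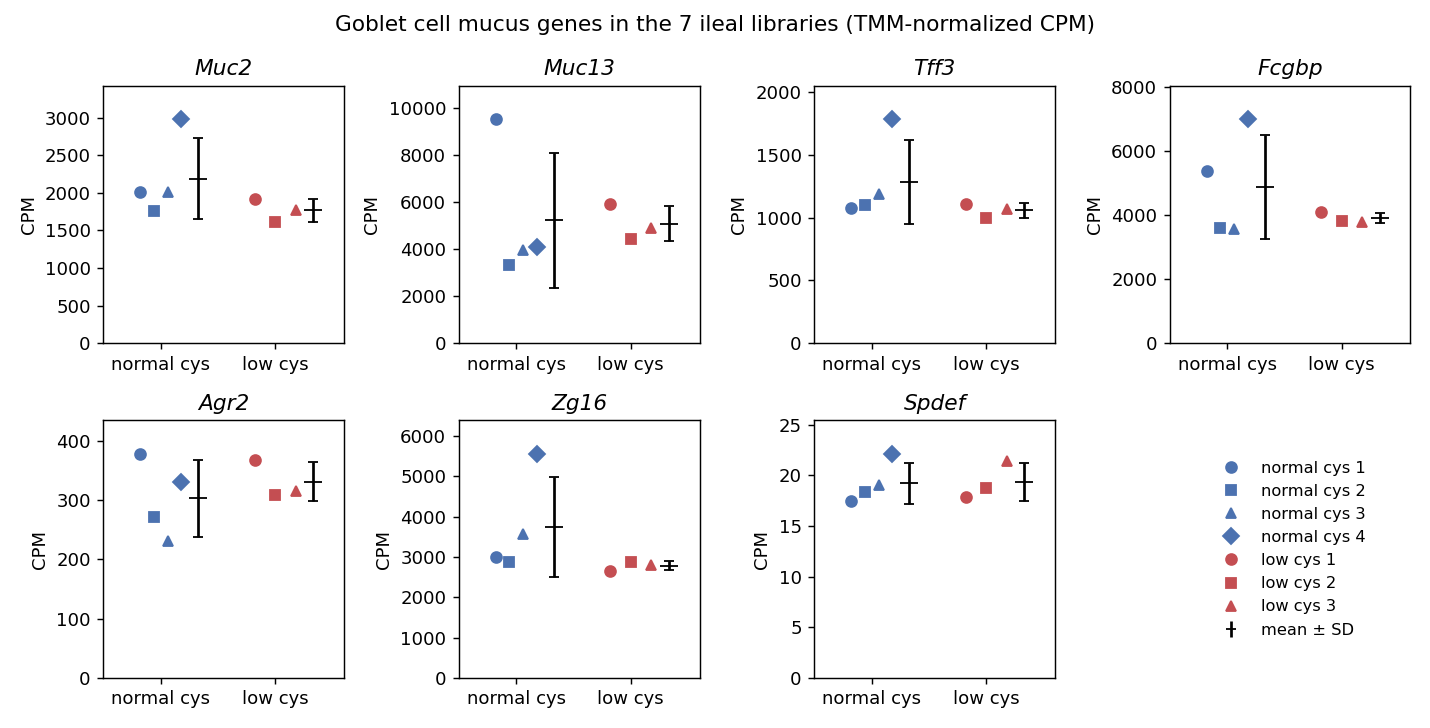
Level of each of the 7 genes in CPM in every library, by diet, with the mean and SD beside the points. Normal cys replicate 4 is the highest library for Muc2, Tff3, Fcgbp, Zg16 and Spdef, normal cys replicate 1 is the highest for Muc13 and Agr2, and the groups overlap in each panel.

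None of the 7 genes passed the test. At an adjusted p under 0.05 edgeR called 0 of the 7, where it called 0.0% of the 14869 genes tested, with 0 genes by limma-voom and 16 by DESeq2, or 0.0728% of the genes DESeq2 adjusted. At an unadjusted p under 0.05 it called 0 of the 7, against 5.49% of all genes tested (2.66% higher and 2.83% lower with low cys). The groups were fully separated in 0 of the 7 genes, against 6.83% of all genes tested. The estimate was lower on the low cys diet for 5 of the 7, against 48.8% of all genes tested, and for 4 of the 7 by library size alone or limma-voom, where Muc13 turned, and 6 of the 7 by DESeq2, where Spdef turned. The median log2 fold change of the 7 was -0.282, and that of all genes tested was 0.007. For the 7 it was -0.10 without normal cys replicate 4, -0.129 by library size alone and 0.048 without normal cys replicates 1 and 4, so its size depended on these libraries and its direction on leaving out both. The intervals leave room for a difference in either direction for each of the 7 genes, so an absence of change was not shown. In bulk tissue, fewer cells of a type and less RNA per cell cannot be told apart.

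**Figure D2:**
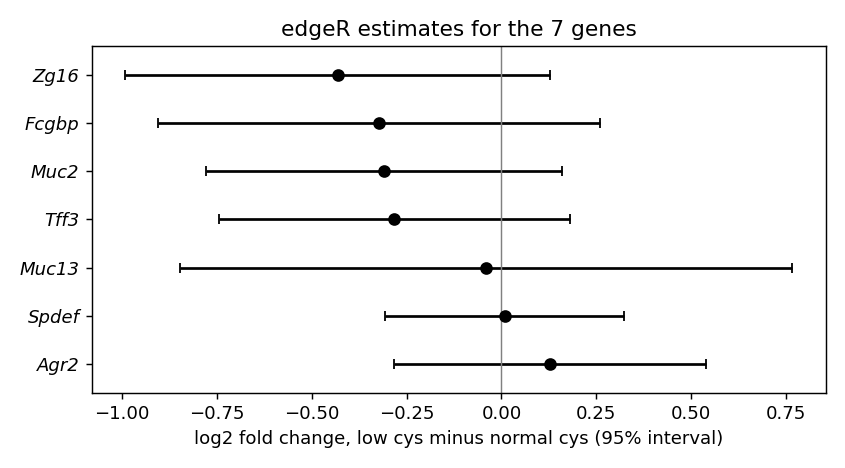
Log2 fold change of the 7 genes, low cys minus normal cys, with the 95% interval of the edgeR fit as bars. The estimates run from -0.43 for Zg16 to 0.13 for Agr2, and each interval includes 0.

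The spread within a diet differed between the genes. On the normal cys diet the coefficient of variation was 54.9% for Muc13, 33.4% for Fcgbp, 33.2% for Zg16, 25.96% for Tff3, 24.6% for Muc2, 21.3% for Agr2 and 10.5% for Spdef. On the low cys diet it was 14.9% for Muc13, 4.17% for Fcgbp, 4.05% for Zg16, 5.56% for Tff3, 8.63% for Muc2, 9.89% for Agr2 and 9.66% for Spdef. With all libraries kept each coefficient was lower on the low cys diet, but single normal cys libraries set this order for 4 of the genes. Among the normal cys libraries it was 11.1% for Muc13 without replicate 1, and 7.74% for Muc2, 5.11% for Tff3 and 4.33% for Spdef without replicate 4, each below the low cys value. Without both replicates it was lower on the low cys diet for 3 of the 7 genes. A difference in spread was not tested. Together the 7 genes held 2.07, 1.33, 1.31 and 2.03% of all counts in normal cys replicates 1 to 4, and 1.80, 1.43 and 1.53% in low cys replicates 1 to 3. Normal cys replicates 1 and 4 had the highest shares, the former through Muc13 and the latter through the secreted proteins.

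Between genes, levels can be compared per kilobase of counted exon. On that scale Zg16 was the most abundant, at 5237 CPM per kilobase over the 7 libraries, which ranked 12 among the 14869 genes tested. Tff3 followed at 2408 and Muc13 at 1700.3 CPM per kilobase. Their order changed in normal cys replicate 1, where Muc13 was at 3127 and Tff3 at 2186 CPM per kilobase, and in normal cys replicate 4 Muc2, at 1465, was above Muc13, at 1352. Muc2 was at 988 CPM per kilobase of its counted 3′ part, Fcgbp at 425, Agr2 at 244 and Spdef at 8.82. The transcription factor was thus far below the products of the cells it acts in, and ranked 5479. The ranges over the libraries of Zg16 (4175 to 8734 CPM per kilobase) and of Tff3 (2014 to 3612) did not overlap, and neither did those of Muc2 (794 to 1465) and Fcgbp (341 to 665). The range of Muc13 (1094 to 3127) overlapped those of Tff3 and Muc2.

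The secreted products kept closer ratios to Muc2 than Muc13 did. Over the 7 libraries the count of Zg16 was 1.38 to 1.87 times that of Muc2, and that of Fcgbp 1.78 to 2.66 times. The count of Tff3 was 0.535, 0.625, 0.589 and 0.598 times that of Muc2 in normal cys replicates 1 to 4, and 0.578, 0.615 and 0.605 times in low cys replicates 1 to 3. The ratio of Muc13 to Muc2 was 4.71, 1.89, 1.98 and 1.38 in the normal cys libraries, and 3.08, 2.75 and 2.76 in the low cys libraries. These ratios need no scaling of the libraries. Over the 7 libraries, Pearson's r of log2 CPM between Muc2 and Tff3 was 0.966 (exact permutation p = 0.00456, adjusted p = 0.0958 over 21 pairs) and Spearman's rho was 0.714 (exact permutation p = 0.0881, adjusted p = 0.617). For this pair r was 0.956 as deviations from the diet means, 0.783 without normal cys replicate 4, and 0.507 without the 2 libraries farthest from the median of Muc2, a step that also narrows the range of Muc2. Tff3 and Zg16 had r = 0.955 and rho = 0.464 (exact permutation p = 0.0175 and 0.302, adjusted p = 0.144 and 0.706), with r = 0.584 without normal cys replicate 4 (exact permutation p = 0.258) and 0.781 after the same step on Tff3. Muc13 and Agr2 had r = 0.751 and rho = 0.857 (exact permutation p = 0.0532 and 0.0238, adjusted p = 0.223 and 0.25), with r = 0.725 after it on Muc13. Of the 21 pairs, 0 had an adjusted permutation p under 0.05 by either measure, while 4 had an unadjusted p under 0.05 for r and 2 for rho. As deviations from the diet means 8 of the 21 had one for r, by a permutation over both diets that is only approximate for such deviations. Without normal cys replicate 4 the count was 2, none of them among the first 4.

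Among the 8618 tested genes with a mean of at least 10 CPM, those most like Muc2 over the 7 libraries included Grtp1 (r = 0.979, rho = 0.964), AC111044.1, Srpk1 and Zfp426. For Spdef they were Nprl2 (r = 0.947, rho = 1.0), Ptgr2, Zfp869, Ino80b and Secisbp2. For Muc13, which was added to this ranking after its values were seen, they were Tbc1d14 (r = 0.988, rho = 1.0), Gtf2ird1, Smad1, Ceacam1 and Tank. Without the 2 libraries farthest from the median, r stayed at 0.672 or above for the genes named for Muc2 and at 0.820 or above for those named for Muc13, while for Spdef it ran from 0.946 for Nprl2 to 0.421 for Ino80b and 0.396 for Secisbp2. These names rank likeness in 7 libraries, and no p is given for a choice among so many genes.

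The share of cysteine codons differed widely between the GENCODE M21 transcripts used for the genes. For Muc2 this transcript holds only the 3′ end of the gene that was counted, so its value is that of the C-terminal part and not of the whole mucin. Cysteine codons were 59 of 483 codons (12.2%) in this part of Muc2, 7 of 81 (8.64%) in Tff3 and 218 of 2583 (8.44%) in Fcgbp. The median over 22389 genes was 2.13%, and 99.2, 98.1 and 98.0% of genes had a lower share than this part of Muc2, Tff3 and Fcgbp. Muc13 had 20 of 573 codons (3.49%), Spdef 6 of 325 (1.85%), Zg16 3 of 167 (1.80%) and Agr2 1 of 175 (0.571%). Whether cysteine content and the difference between the diets are related was not tested over these 7 genes.

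The gene model behind the counts limits what the Muc2 row measures. The Muc2 row (ENSMUSG00000025515) covers only the 3′ end of the gene, from 141746832 to 141754690 on chromosome 7 of GRCm38, with 16 exons of 2032 bases in all, while the GENCODE M21 gene runs from 141690340 to 141754693. Another 2 rows, named MUC2 in capitals and so not matched, lie upstream at 141695703 to 141697247 (399 exon bases) and at 141699186 to 141701375 (711 exon bases). Together they held 622, 313, 259 and 664 counts in normal cys replicates 1 to 4, and 650.0, 478 and 248 counts in low cys replicates 1 to 3. Per kilobase this was 2.95, 1.48, 1.24 and 1.95% of the Muc2 row in the normal cys libraries, and 2.53, 3.39 and 1.66% in the low cys libraries. The upstream exons were thus counted at a small share of the level of the 3′ end in each library, and the groups overlapped. The cause of the difference along the gene was not tested. The log2 fold changes of the upstream rows were 0.06 (SE 0.388) and 0.08 (SE 0.354), with adjusted p-values of 0.977 and 0.960 in edgeR, and adding them to Muc2 left its log2 fold change at -0.31.

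The study also measured Muc2 by qRT-PCR, with a primer pair that lies in neither the Muc2 row nor the upstream rows. It is shown because it reads another stretch of the RNA than the counts do. In the Muc2 transcript of GENCODE M21 that starts at 141690340 and has 20 exons, the forward primer matches exon 3 at chr7:141692716-141692733 and the reverse primer exon 4 at chr7:141693155-141693175, on the plus strand of GRCm38 for the forward primer and on the opposite strand for the reverse.
Muc2 forward primer: tgtggaaccgggaagatg
Muc2 reverse primer: gaccacaggtatggttctgga

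**Figure D3:**
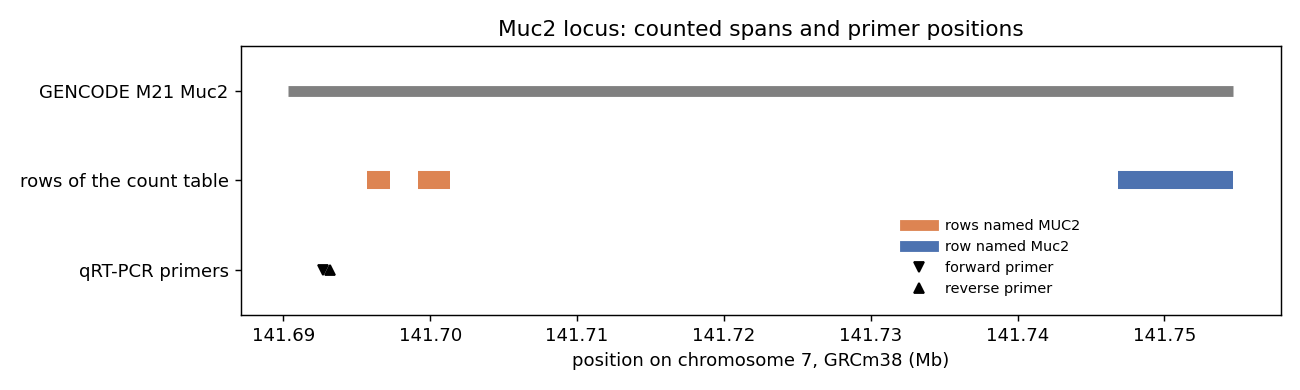
Position on chromosome 7 of GRCm38 (in Mb) of the Muc2 gene in GENCODE M21, the 3 rows of the count table that lie in it and the primers of the qRT-PCR assay. The row named Muc2 spans only the 3′ end, from 141746832 to 141754690, and the primers lie upstream of all 3 rows.

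The positions and overlaps of the other gene models were examined too. Tff3 (ENSMUSG00000024029, chromosome 17, 31125306 to 31129646), Agr2 (ENSMUSG00000020581, chromosome 12, 35992907 to 36004087) and Spdef (ENSMUSG00000024215, chromosome 17, 27714352 to 27728951) overlap no other gene. Muc13 (ENSMUSG00000022824, chromosome 16, 33794037 to 33819934) overlaps the antisense gene Gm15657, which had at most 4 counts in a library. Fcgbp (ENSMUSG00000047730, chromosome 7, 28071236 to 28120862) overlaps the antisense gene Gm10935, which had at most 1 count. The strand setting of the counting is not given in the sources used here. Of the 50-base stretches of the Fcgbp transcripts, 6.42% also occur in 9530053A07Rik or B230219D22Rik, which are related genes, so a small part of its reads could be split among them. The share was 0% for the other 6 genes. The row of Zg16 (ENSMUSG00000049350) runs from 127050156 to 127051977 on chromosome 7 and includes 636 exon bases, while the GENCODE M21 gene extends to 127087328.

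Other secreted products of goblet and Paneth cells were measured beside the 7 genes. Of 15 listed, 8 were tested, and 0 had an unadjusted p under 0.05 in edgeR, with 0 whose groups did not overlap and a median log2 fold change of 0.22. The estimate was higher on the low cys diet for each of the 8, but lower for 3 of them without normal cys replicate 4 or low cys replicate 1 and for 1 without normal cys replicate 3. The median was 0.485 without normal cys replicate 1, 0.38 and 0.441 without normal cys replicate 2 and low cys replicate 2, 0.112 and 0.145 without normal cys replicate 4 and low cys replicate 1, and 0.482 by limma-voom. The count was 0 with DESeq2 and limma-voom, and 2 (Dmbt1 and Clca1) without normal cys replicate 1. The most abundant per length were Spink4, a secreted protease inhibitor, Itln1, a lectin, and Dmbt1, a scavenger receptor-like secreted protein. Dmbt1 ranged from 140.5 CPM in normal cys replicate 4 to 2574.5 CPM in normal cys replicate 1, the libraries with the highest levels of the 7 genes. Its log2 fold change was 0.22 (SE 1.02). That of Dmbt1 was 1.82 (SE 0.699) without normal cys replicate 1, and it turned to -0.15 and -0.13 without normal cys replicates 3 and 4 and to -0.71 without low cys replicate 1. The gel-forming and trefoil genes of other organs were near 0, with 0 counts for Muc19 and at most 3 for Muc5ac, 4 for Muc5b, 6 for Muc6, 5 for Tff1 and 2 for Tff2 in any library. Retnlb, a goblet cell product induced by bacteria and parasites, had at most 20 counts and was not tested.

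Transmembrane mucins and related proteins of the brush border were represented by 4 tested genes of 10 listed. All 4 had a lower estimate on the low cys diet (48.8% of all genes), of which 2 turned by library size alone and 1 by limma-voom. Only 2 of the 4 were lower without low cys replicate 2, and 3 without normal cys replicate 1 or low cys replicate 3. In 2 of the 4 the groups did not overlap (6.83% of all genes). The median log2 fold change was -0.217. It ran from -0.353 without normal cys replicate 3 to -0.15 without low cys replicate 2, and was -0.069 by library size alone. Muc3, an enterocyte mucin, was at 2747 ± 274 CPM (SD, n = 4) on the normal and 1953 ± 426 CPM (SD, n = 3) on the low cys diet. Its log2 fold change was -0.49 (SE 0.194), with 0.794 as the adjusted p of edgeR, and each of the 3 low cys libraries lay below every normal cys library. Cdhr5, a mucin-like protocadherin of the microvilli, had a log2 fold change of -0.32 (SE 0.148), with an adjusted p of 0.794, and its groups did not overlap either. The row A630081J09RIK, which GENCODE M21 names Muc3a, had a log2 fold change of -0.11 (SE 0.139). At an unadjusted p under 0.05 the list had 0 higher and 1 lower gene, Muc3, against 2.66 and 2.83% of all genes. The count was 0 by library size alone and without normal cys replicate 2 or 4 or low cys replicate 2 or 3. It was 2 lower genes with DESeq2 or limma-voom (Muc3 and Cdhr5), and 1 lower (Muc3) and 1 higher (Muc4) without normal cys replicate 1. Muc4, the last of the 4 and named after its values were seen, was at 56.1 CPM in normal cys replicate 1 and between 5.97 and 27.3 CPM in the other libraries. Its log2 fold change was -0.08 (SE 0.765) with all libraries and 1.20 (SE 0.355) without normal cys replicate 1, and it also turned without low cys replicate 2 (0.11) or 3 (0.04).

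The regulators of the secretory lineage, 11 of 12 listed genes tested, had 0 with an unadjusted p under 0.05 in edgeR and a median log2 fold change of 0.085 (0.039 without normal cys replicate 3 to 0.198 without normal cys replicate 1). The count was 1 with DESeq2, with no filter on low counts and without normal cys replicate 2 or low cys replicate 2 (Klf4 in each), 1 without normal cys replicate 1 (Hes1), and 0 with limma-voom. Atoh1, the factor that commits progenitors to the secretory lineage, was at 19.3 ± 4.52 CPM (SD, n = 4) and 19.5 ± 2.49 CPM (SD, n = 3). Klf4, expressed in goblet cells and in differentiated enterocytes, had a log2 fold change of -0.47 (SE 0.223), and Xbp1, a regulator of the secretory machinery, had 0.09 (SE 0.154). Neither passed the test in edgeR, with adjusted p-values of 0.794 and 0.887. Without low cys replicate 1 the log2 fold change of Klf4 was -0.26. Of the 19 genes of mucin folding, all tested, 0 had an unadjusted p under 0.05 and the median log2 fold change was 0.055 (-0.044 without normal cys replicate 3 to 0.108 without normal cys replicate 1). The count was 0 with DESeq2, and 1 with limma-voom or without low cys replicate 2 (Ero1lb). The most abundant per length were the disulfide isomerases P4hb and Pdia3 and the chaperone Hsp90b1, with log2 fold changes of -0.25 (SE 0.192), 0.11 (SE 0.181) and 0.15 (SE 0.201).

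Of 27 glycosylation genes 25 were tested. Among them 0 were higher and 1 was lower at an unadjusted p under 0.05, against 2.66 and 2.83% of all genes, the groups did not overlap in 2 (6.83% of all genes), and the median log2 fold change was -0.001 (-0.107 without normal cys replicate 2 to 0.142 without normal cys replicate 1). The lower gene was Galnt10, which starts mucin-type O-glycans, with a log2 fold change of -0.27 (SE 0.119) and an adjusted p of 0.794 in edgeR. The count was 0 with DESeq2, limma-voom, library size alone, no filter on low counts or at least 10 counts in every library, and also without normal cys replicate 2 or 4 or any single low cys replicate, and it was 4 without normal cys replicate 1 (B3galt5 and Fut2 higher, B3gnt6 and St6galnac6 lower), where Galnt10 no longer had such a p either. The most abundant per length were the sialyltransferase gene St3gal4, whose groups did not overlap, and B4galnt2 and B3gnt3, with log2 fold changes of -0.23 (SE 0.158), 0.11 (SE 0.165) and -0.08 (SE 0.158). Genes of mucus release and processing (16 of 18 tested) and other goblet cell markers (16 of 16 tested) each had 0 with an unadjusted p under 0.05 in edgeR, DESeq2 and limma-voom, with 2 and 1 genes whose groups did not overlap and medians of 0.014 and -0.045. With single libraries left out the first ran from -0.154 without normal cys replicate 3 to 0.043 without low cys replicate 3, and the second from -0.127 without normal cys replicate 3 to 0.006 without normal cys replicate 4. By library size alone the counts were 1 and 2, and for the goblet cell markers it was also 2 without normal cys replicate 2 or low cys replicate 2. Mep1a and Mep1b encode the meprin proteases, of which meprin beta cleaves MUC2 and detaches small intestinal mucus. Mep1a had a log2 fold change of -0.36 (SE 0.203), and Mep1b had -0.27 (SE 0.166). The groups of Mep1a did not overlap, but only just, with 1442.0 CPM in low cys replicate 2 and 1442.8 CPM in normal cys replicate 1. A two-sided exact permutation test of Mep1a gave p = 0.171.

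Leaving out normal cys replicate 1 moved the counts of several of these lists. Without it, 11.9% of all genes had an unadjusted p under 0.05 in edgeR, and 0 had an adjusted p under 0.05. Mucin folding then had 5 higher genes and 1 lower of the 19, named here after their values were seen. The higher genes were the disulfide isomerase genes Pdia4, Pdia5 and Pdia6, the stress sensor Ern1 and the chaperone gene Creld2, with log2 fold changes of 0.43, 0.61, 0.59, 0.49 and 0.46, and the lower was the oxidase gene Ero1lb with -0.46. Their adjusted p-values in edgeR were between 0.373 and 0.415. The other secreted products had 2 higher genes, the transmembrane mucins 1 higher and 1 lower, the regulators 1 higher, glycosylation 2 higher and 2 lower, release and processing 1 higher and 3 lower, and other goblet markers 2 lower. The list counts thus moved with this library, and some also with other libraries or settings, as given beside each list. The share of all genes at an unadjusted p under 0.05 was 6.17, 2.73 and 5.65% without normal cys replicates 2 to 4. It was 1.71, 6.3 and 3.44% without low cys replicates 1 to 3. With DESeq2, limma-voom, library size alone and no filter on low counts it was 4.5, 6.29, 6.97 and 4.88%. The 7 genes had 0 with an unadjusted p under 0.05 in edgeR with any single library left out.

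Markers of other cells in the scrapings also differed between normal cys replicates 1 and 4. The 11 Paneth cell genes, all tested, summed to 8560.5, 4587.5, 4477 and 1269 CPM in normal cys replicates 1 to 4, and to 9136, 5337 and 9694 CPM in low cys replicates 1 to 3. The library with the most Muc2, Tff3, Fcgbp and Zg16 thus had the lowest Paneth cell sum, and the most abundant gene, Defa20, was also lowest there at 287 CPM. Each of the 11 had a higher estimate on the low cys diet, with a median log2 fold change of 0.777, and 0 had an unadjusted p under 0.05 in edgeR, DESeq2 or limma-voom. The median was 1.19 with 8 such genes (11.9% of all genes) without normal cys replicate 1, and without normal cys replicate 4 it was 0.437 with 1 lower estimate. The 8 B and plasma cell genes summed to 654, 661, 491 and 191 CPM in the normal cys libraries, and to 817, 1165 and 1203.5 CPM in the low cys libraries. Their most abundant row was AC160982.1, which GENCODE M21 names Igha. It and Igj were the 2 of the 8 that were higher at an unadjusted p under 0.05 (2.66% of all genes), with log2 fold changes of 1.14 and 1.25. The list as a whole had a median of 0.227 with 2 of 8 lower, which ran from -0.151 with 5 lower without low cys replicate 2 to 0.696 with 0 lower without normal cys replicate 2, and was -0.097 with 6 lower and -0.091 with 5 lower without normal cys replicates 4 and 1. Without low cys replicate 3 AC160982.1 no longer had such a p. The 11 enterocyte genes summed to 43709, 44943, 65194 and 60314 CPM in the normal cys libraries, and to 23999, 40072 and 43288 CPM in the low cys libraries, with Fabp2 as the most abundant. Of these 11, 2 were lower at an unadjusted p under 0.05 (2.83% of all genes), Apoa1 and Krt20, with log2 fold changes of -0.79 and -0.41. Neither had such a p without normal cys replicate 3 or low cys replicate 1 or 2, Apoa1 also not without normal cys replicate 4, nor Krt20 without normal cys replicate 1 or low cys replicate 3. DESeq2 gave 5 lower genes at such a p, where it gave 4.5% of all genes in either direction. The estimate was lower on the low cys diet for each of the 11 (10 without normal cys replicate 3), with a median of -0.407, as it was for Muc3 and Cdhr5, which enterocytes make. In none of these 3 lists was a gene at 0 in all libraries, and their part in the levels of the mucus genes was not tested.

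Marker genes of other cells were assayed by qRT-PCR beside Muc2. In the sequenced libraries Krt20, Lyz1, Lgr5, Mki67, Sox9 and Olfm4 had log2 fold changes of -0.41 (SE 0.180), 0.81 (SE 0.519), 0.56 (SE 0.409), 0.61 (SE 0.422), 0.28 (SE 0.267) and 1.00 (SE 0.673), and none of them passed an adjusted p of 0.05 in edgeR, DESeq2 or limma-voom. In the same order they were -0.34, 1.37, 0.95, 0.93, 0.44 and 1.97 without normal cys replicate 1, and -0.45, 0.51, 0.37, 0.37, 0.17 and 0.77 without normal cys replicate 4. Without low cys replicate 1 Lgr5 was at 0.31 and Sox9 at 0.11, and without low cys replicate 2 Sox9 was at 0.51. Lyz1, a Paneth cell gene, was lowest in normal cys replicate 4, at 279.8 CPM.

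The other lists of cell markers are counted at an unadjusted p under 0.05 in edgeR, where 2.66% of all genes were higher and 2.83% lower with low cys. Enteroendocrine cells had 1 higher gene of 10 (Gcg, log2 fold change 0.80), against a lower estimate for 6 of the 10 and a median of -0.209 (-0.052 without low cys replicate 2, -0.078 without normal cys replicate 4 and -0.129 without low cys replicate 1). Stem cells had 1 higher of 8 (Slc12a2, 0.89), with a median of 0.498 (0.279 without normal cys replicate 4). Tuft cells had 3 lower of 8, among them Sh2d6 and Avil, with -0.70 and -0.51, and all 8 had a lower estimate (median -0.503). Stroma had 3 higher of 6 (Dcn, Col6a1 and Col3a1, with 1.501, 1.32 and 1.53) and smooth muscle 2 higher of 7 (Actg2 and Des, with 1.95 and 1.80), and each tested gene of both lists had a higher estimate (medians 1.126 and 1.381). These genes had few counts per library, at 26 to 110, 13 to 85, 22 to 98, 4 to 90 and 2 to 109 in the order named. Among genes with at least 10 counts in every library, 3 of 3 in stroma and 0 of 4 in smooth muscle had an unadjusted p under 0.05. The smooth muscle median was 0.463 without low cys replicate 2, so its size depended on that library. Gcg, Slc12a2, Dcn, Col6a1 and Col3a1 had an unadjusted p under 0.05 with any single library left out. With single libraries left out, the share of all genes with an unadjusted p under 0.05, in either direction, also moved. It was 11.9, 6.17, 2.73 and 5.65% without normal cys replicates 1 to 4, and 1.71, 6.3 and 3.44% without low cys replicates 1 to 3. The tuft cell count was 0 without normal cys replicate 2 or 4 or low cys replicate 1, 1 without normal cys replicate 3 or low cys replicate 2 or 3, and 6 without normal cys replicate 1. The smooth muscle count was 0 without normal cys replicate 2 or 3 or low cys replicate 2, 1 without normal cys replicate 4, 4 without normal cys replicate 1 and 6 without low cys replicate 1. For stem cells it was 5 higher without normal cys replicate 1, and 1 higher and 1 lower without normal cys replicate 2 or low cys replicate 3, where the lower gene was Axin2 (-0.52 and -0.61), and for enteroendocrine cells 2 without normal cys replicate 1.

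The lists without such a gene also had directions. T cell genes had 0 of 8, with a lower estimate for all 8 (median -0.349, and 6 of 8 lower with -0.187 without normal cys replicate 1 and 7 with -0.195 without low cys replicate 1). Proliferation genes had 0 of 9, macrophage genes 0 of 8 and endothelial genes 0 of 6, with a higher estimate for each gene tested (medians 0.611, 0.524 and 0.636). DESeq2 also gave 0 for these 4 lists (4.5% of all genes), and limma-voom 1 for each except T cells (6.29% of all genes). Their counts without normal cys replicate 1 were 0, 5, 2 and 1 in the same order, where 11.9% of all genes had such a p. Without normal cys replicate 4 the medians were -0.409, 0.347, 0.267 and 0.663. For proliferation the median was also 0.342 without low cys replicate 1, 0.399 without normal cys replicate 3 and 0.934 without normal cys replicate 1. T cells had 1 without low cys replicate 2 (6.3% of all genes), and endothelium 1 without normal cys replicate 4 (5.65%) or low cys replicate 2. Distal ileum genes had 0 of 6, with 5 lower (median -0.267, and -0.109, -0.142 and -0.422 without normal cys replicate 4, low cys replicate 1 and low cys replicate 2) and 1 such gene without normal cys replicate 1 or low cys replicate 2, and exocrine pancreas 0 of 1. The colon list had 1 lower of 4 (Sprr2a2, -0.45), which was lost without normal cys replicate 1, 3 or 4 or low cys replicate 1 or 3. Of the 5 stomach surface genes 0 were tested.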

How the data were processed

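The authors trimmed paired-end reads of 50 bases from stranded poly(A) libraries, removed ribosomal reads, aligned the rest to GRCm38 with STAR and deposited raw counts per gene from featureCounts with the Ensembl release 70 annotation. Groups came from the diet in the sample labels. Genes kept by filterByExpr (minimum count 10, minimum total 15) were normalized by TMM and compared in edgeR 4.0.16 (R 4.3.3) with the robust quasi-likelihood test, without covariates, with Benjamini-Hochberg adjustment over the whole set of tested genes. Log2 fold changes used a prior count of 2, and intervals came from the SE and the degrees of freedom of the test. The pipeline was tested on simulated counts with 200 changed genes. At an adjusted p under 0.05 edgeR called 46 of 100 genes changed by 1 in log2, and 83 of 100 changed by 2. It also called 7 unchanged genes, and 0 when no gene was changed. Changes smaller than 1 in log2 were not simulated. Gene identifiers were matched to GENCODE M21 (36345 of 38293). DESeq2 1.42.0, limma-voom (limma 3.58.1), other scalings and filters, a non-robust fit, a prior count of 0.125 and leaving out each library were alternatives. Genes named beside the 7 were, in each list, those with an unadjusted p under 0.05 and the 3 most abundant per length, and the 5 most like Muc2 or Spdef. Some genes that this rule names are not reported here. Those outside this rule are named as chosen after their values were seen, or for a list's range, overlap, absence of counts or calls under an alternative, or because the study assayed them by qRT-PCR. The members and lists were chosen with earlier results of these data known. No sequencing batch is given in the sources used here. Replicates are libraries of separate mice.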

Additional observations from a re-analysis of the deposited data

Results flagged for a closer look

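Among the 4 normal cys libraries, 1 library lay far from the others in 5 of 82 values examined, where chance would give about 4.1. The measure is the distance of an extreme library from its neighbour as a ratio to the range of log2 CPM over the group, compared with Dixon's critical value. None of the 5 is one of the 7 mucus genes. Klf4, a goblet cell and enterocyte transcription factor, was lowest in normal cys replicate 2 (ratio 0.870, with log2 CPM of 8.78, 8.28, 8.86 and 8.85 in replicates 1 to 4). B3gnt3, a glycosyltransferase gene, was highest in replicate 1, which was also highest in Muc13 and Agr2 (ratio 0.949, with 7.81, 7.30, 7.30 and 7.27). The macrophage genes C1qa and C1qb were lowest in replicate 4, which was highest in Muc2, Tff3, Fcgbp and Zg16. C1qa had a ratio of 0.896, with 0.37 log2 CPM in replicate 4, and C1qb a ratio of 0.882, with 0.90 log2 CPM. The bile acid transporter gene Ostb was lowest in replicate 3 (ratio 0.944, with 8.08 log2 CPM).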

How the results depend on the processing

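No paired analysis was possible because the labels give no replicate numbers, and the numbers used here follow the order of the samples and tie no libraries of different diets together. Of the log2 fold changes of the 7 genes under the alternatives, 102 kept their direction and side of the threshold, 10 turned and 1 passed an unadjusted p of 0.05. DESeq2 gave 16 genes with an adjusted p under 0.05 and limma-voom 0, and leaving out single libraries gave 0 to 1, with 1 without normal cys replicate 2. Groups that did not overlap were found for 1 of the 7 genes with no filter on low counts (Zg16, against 6.08% of all genes), for 0 to 2 with single libraries left out, and for 3 without normal cys replicates 1 and 4 (Muc13, Fcgbp and Agr2), against 31.3% of all genes. Among single libraries left out these were Muc13 without normal cys replicate 1 (2657 of 14786 genes), Muc2 and Zg16 without normal cys replicate 2 (12.7%), and Zg16 without normal cys replicate 3 (9.01%) or low cys replicate 2 (19.7%). Without normal cys replicates 1 and 4, a comparison chosen after seeing the data, 1 of the 7 had an unadjusted p under 0.05 (Agr2 at 0.39 in log2 fold change, against 11.9% of all genes), which is no test because the libraries left out held its highest normal cys levels, Muc13 was at 0.48 and Fcgbp at 0.12 in log2 fold change. Spdef turned to -0.0037 with DESeq2 and -0.0082 with no filter, and Muc13 to 0.0728 with limma-voom and 0.11 with library size alone. With single libraries left out, Muc13 ran from -0.19 to 0.42, turning without normal cys replicate 1 (0.42) and low cys replicate 2 (0.07), and Spdef from -0.0736 to 0.0814. As deviations from the diet means, r turned to 0.0486 for Muc2 and Muc13 and to 0.0834 for Agr2 and Zg16, and 4 further pairs had an unadjusted permutation p under 0.05: Muc13 and Agr2 (r 0.766, p = 0.0438), Tff3 and Spdef (r 0.758, p = 0.0349), Fcgbp and Agr2 (r 0.767, p = 0.0421), and Zg16 and Spdef (r 0.792, p = 0.0183). These permutations ran over both diets together, and their p-values are approximate because the deviations sum to 0 within each diet. Without normal cys replicate 4, a step added after seeing the data, r was 0.497 for Muc2 and Muc13, -0.363 for Muc2 and Spdef, -0.178 for Tff3 and Fcgbp, -0.465 for Tff3 and Agr2, -0.073 for Tff3 and Spdef, -0.146 for Fcgbp and Zg16, and -0.522 for Fcgbp and Spdef, which all turned. In the same step r went from 0.327 to 0.959 for Muc13 and Fcgbp and from -0.109 to -0.709 for Agr2 and Zg16, the first of these and Muc13 and Agr2 (r 0.815) passed an unadjusted p of 0.05, and the 4 pairs that had one before no longer did. The causes of these turns were not tested. With 4 and 3 libraries, the intervals allow differences of the sizes given beside each gene.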
